A study of Mus musculus with 6 samples.

Results

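The apolipoprotein and lipoprotein secretion genes described here are 9 genes, Apoa1, Apoa2, Apoa4, Apoa5, Apob, Apoc3, Apoe, Mttp and Angptl4. They were taken by symbol from the platform's probe table, where 16 probe sets carry one of these symbols alone, out of 45037 probe sets and 18193 genes with a symbol of their own. The livers came from male mice aged 9 weeks, 1 mouse per array. In 3 mice (Keap1_CKO, numbered 3, 4 and 5) the genotype was Alb-Cre::Keap1(flox/-), in which a floxed Keap1 allele lies opposite a null allele. In the 3 genetic controls (numbered 1, 2 and 3) it was Alb-Cre:Keap1(flox/+), so both groups carried Cre and a floxed allele. All 6 mice had been given only vehicle (10% DMSO, 10% Cremophor-EL, 80% PBS), and no untreated mouse without Cre is among them. The albumin promoter that drives Cre is active in hepatocytes, whereas the null allele is present in every cell of the knockouts. KEAP1 holds back the transcription factor NRF2 by presenting it for degradation, and the design asks which liver genes depend on it.

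Hepatocytes export triglyceride and cholesterol as very low density lipoproteins. The microsomal triglyceride transfer protein, MTTP, loads lipid onto apolipoprotein B as it is made, and smaller apolipoproteins (A, C and E) join the particle or form high density lipoproteins. Once in blood, apolipoproteins A-V and C-III and the secreted inhibitor ANGPTL4 set the pace at which lipoprotein lipase removes the triglyceride, and apolipoprotein E guides the remnants back to the liver.

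Values are deposited array signals in linear units, scaled to 1 shared average per array, and differences are of log2(signal + 16), knockout minus control. The highest signal on an array lay between 37657 and 45204, and the median signal between 114 and 146. Signals of different probe sets are not compared with each other, since probes differ in affinity. The label check gave Keap1 at 326, 151 and 214 in the knockouts and 786, 843 and 700 in the controls (log2 difference -1.74, limma adjusted p = 0.0102), although a second Keap1 probe set differed by -0.71 (adjusted p = 0.222). The NRF2 target Nqo1 differed by 2.31 (adjusted p = 0.000161). Nfe2l2, the gene of NRF2 itself, read 2222, 2899 and 2397 in the knockouts and 3676, 4285 and 3912 in the controls. It differed by -0.66 (adjusted p = 0.0352), and its other probe set by -0.18 (adjusted p = 0.716). Over all 27022 probe sets tested, 415 passed an adjusted p of 0.05, or 1.54%, with 220 higher and 195 lower in the knockouts. That split was 191 higher and 91 lower after median centring and 134 higher and 428 lower after scaling on the hybridisation controls, which moved the median over all probe sets to -0.20. Of 8 measured hepatocyte markers, including albumin and transthyretin, 7 had higher means in the knockouts and 0 passed (summed signal 197172 to 224996 in the knockouts, 180359 to 199889 in the controls).

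4 of the genes form 1 cluster, in the order Apoa1, Apoc3, Apoa4, Apoa5 with no other protein-coding gene between them. Below, Apoa1, Apoa4 and Apoa5 differ in the sign of their differences and in spread. None of their probe sets passed the test, and the signs of some Apoa1 and Apoa4 probe sets changed with the settings. The 250 bases upstream of the start sites of these 3 genes are shown. They are RefSeq sequences of GRCm38.p6, plus strand, and capitals mark a match to CAAAGNNCA, the core of the site bound by HNF4A, a nuclear receptor that controls many apolipoprotein genes. The regions are chr9:46228380-46228629 for Apoa1, chr9:46240594-46240843 for Apoa4 and chr9:46268358-46268607 for Apoa5.
Apoa1: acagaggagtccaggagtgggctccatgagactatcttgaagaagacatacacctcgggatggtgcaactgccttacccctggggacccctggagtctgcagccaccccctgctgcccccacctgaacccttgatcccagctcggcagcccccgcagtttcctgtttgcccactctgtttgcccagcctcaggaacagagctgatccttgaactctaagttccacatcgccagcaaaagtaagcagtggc
Apoa4: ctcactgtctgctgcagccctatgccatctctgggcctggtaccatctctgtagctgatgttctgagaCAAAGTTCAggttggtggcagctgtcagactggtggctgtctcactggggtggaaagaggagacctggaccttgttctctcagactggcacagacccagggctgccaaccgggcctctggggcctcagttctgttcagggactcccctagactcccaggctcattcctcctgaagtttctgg
Apoa5: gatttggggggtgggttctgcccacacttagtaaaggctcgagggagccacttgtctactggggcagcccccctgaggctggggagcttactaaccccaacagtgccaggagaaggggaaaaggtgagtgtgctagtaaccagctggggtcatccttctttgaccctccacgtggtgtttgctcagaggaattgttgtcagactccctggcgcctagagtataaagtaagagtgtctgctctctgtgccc
Upstream sequences were found for 7 of the 9 genes, not for Apoc3 and Angptl4. Searched on both strands, CAAAGNNCA was found upstream of Apoa4 (first base 182 bases before the start) and Apob, and in 5.49% of 32851 such windows of all genes. The core of the antioxidant response element that NRF2 binds, TGACNNNGC, was found in 10.2% of all windows and in that of none of the 7 genes. The direct repeat read by PPAR and RXR receptors, 2 copies of AGGNCA with 1 base between them, was in 0.338% of all windows and in none of the 7. These are letter matches in short windows, not binding sites.

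None of the member probe sets passed the test. Of the 16, 15 were bright enough to enter the fit, and by limma 0 rose and 0 fell. Of all probe sets 1.54% passed, 0.814% higher and 0.722% lower in the knockouts. At an unadjusted p under 0.05 there were 2 of the 15 (13.3%), 1 for Apoa1 and 1 for Apoa5, against 14.5% of all probe sets. The median difference of the 15 was 0.13, and that of all probe sets -0.04. No member probe set passed under any of the 13 other settings or without any 1 array. The median moved with the scaling, to -0.08 after quantile normalization, -0.01 after cyclic loess, -0.03 after scaling on the hybridisation controls and 0.23 after median centring.

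**Figure D1:**
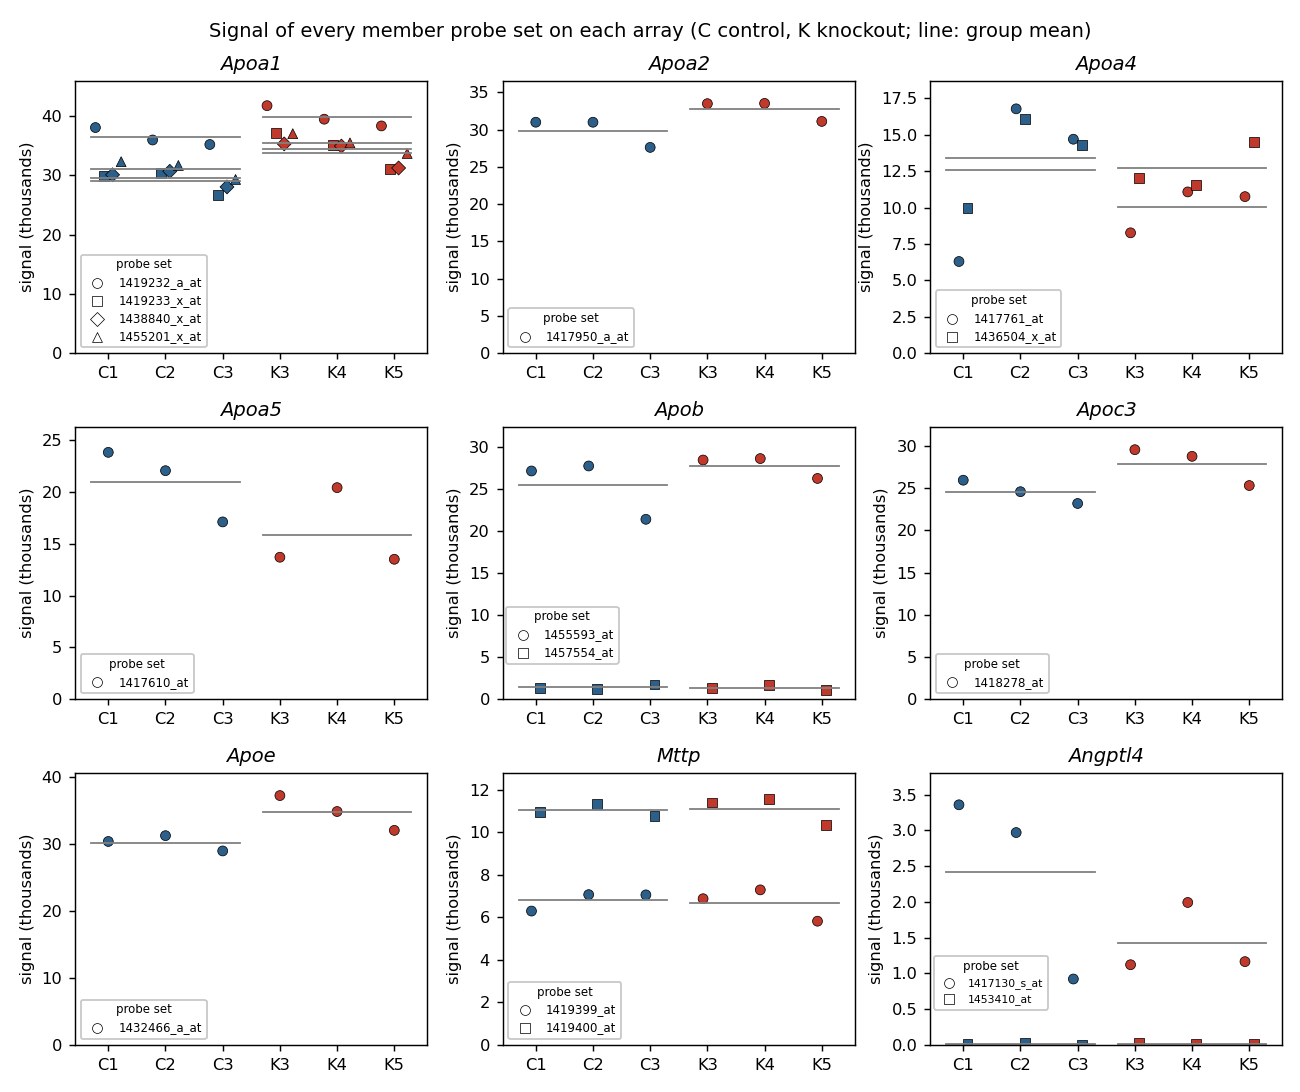
Signal of every member probe set, divided by 1000 (linear axis from 0), on each of the 6 arrays; blue points are controls 1 to 3 (C), red points knockouts 3 to 5 (K), marker shapes are probe sets and grey lines group means. The 4 Apoa1 probe sets, Apoa2 and Apoe have all knockouts above all controls by small margins, whereas the groups overlap for Apoa4, Apoa5, Apob, Apoc3, Mttp and Angptl4.

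Apoa1 encodes the main protein of high density lipoprotein. Its probe set 1419232_a_at read 41718, 39441 and 38306 in knockouts 3, 4 and 5 and 38031, 35938 and 35177 in controls 1, 2 and 3. The groups did not overlap, by a gap that was small beside the spread within them. The difference was 0.13 (standard error 0.08, 95% interval -0.06 to 0.32, adjusted p = 0.517). The probe set 1419233_x_at read 37121, 35064.5 and 31027 against 29846, 30414.5 and 26649, a difference of 0.25 (interval 0.02 to 0.47, adjusted p = 0.304). The other two, 1438840_x_at and 1455201_x_at, differed by 0.19 each (adjusted p = 0.371 and 0.363). All 4 were higher in the knockouts without overlap, but they are 4 readings of 1 gene in the same livers and not 4 results. A suffix _x marks probes that can also match related transcripts.

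Apoa2, the second protein of high density lipoprotein, read 33485, 33520.2 and 31104 in the knockouts and 30998, 30994 and 27620.3 in the controls. Knockout 5 lay just above controls 1 and 2, and control 3 was lowest. The difference was 0.13 (interval -0.07 to 0.33, adjusted p = 0.537), and 0.08 without control 3 (adjusted p = 0.760).

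Apoe, the remnant ligand that macrophages also make, read 37245, 34862 and 32046 in the knockouts and 30387, 31256 and 28973 in the controls. Every knockout was above every control, and knockout 3 was highest. The difference was 0.20 (interval -0.00457 to 0.40, adjusted p = 0.355). The 10 markers of Kupffer cells and macrophages summed to 15171 to 19474 in the knockouts and 10813 to 18634 in the controls, with 7 higher on average and 0 passing, and their part in the Apoe reading was not tested. In whole liver, fewer cells of a type and less RNA per cell cannot be told apart.

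Apoc3 encodes an inhibitor of triglyceride clearance. It read 29554, 28768 and 25308.5 in the knockouts and 25939, 24577 and 23182 in the controls. Knockout 5 lay within the range of the controls. The difference was 0.18 (interval -0.03 to 0.40, adjusted p = 0.427).

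Apob encodes the scaffold of very low density lipoprotein. Its bright probe set 1455593_at read 28495, 28667 and 26299 in the knockouts and 27188, 27785 and 21429.9 in the controls. The groups overlapped and control 3 was lowest of all 6. The difference was 0.14 (interval -0.12 to 0.39, adjusted p = 0.629), and 0.02 without control 3 (adjusted p = 0.959). The dimmer 1457554_at read 1328, 1652.5 and 1086 against 1327, 1220.5 and 1738, with control 3 highest here, and differed by -0.08 (interval -0.49 to 0.33, adjusted p = 0.885). The 2 probe sets of Apob thus had opposite signs and ordered control 3 oppositely.

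Mttp, which lipidates apolipoprotein B, had the smallest differences of the 9 genes. Its probe set 1419400_at read 11406.5, 11577 and 10359 in the knockouts and 10977, 11349 and 10777 in the controls. Both the highest and the lowest value belonged to knockouts. The difference was 0.01 (interval -0.19 to 0.21, or a fold between 0.878 and 1.15, adjusted p = 0.977). The probe set 1419399_at read 6879.8, 7296 and 5822 against 6299, 7072 and 7061 and differed by -0.04 (interval -0.28 to 0.21, adjusted p = 0.919).

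The readings that were higher without overlap were all from bright probe sets, and many other bright probe sets were higher in the same way. Groups did not overlap, with the knockouts higher, in 6 of the 15 member probe sets (4 of Apoa1, 1 of Apoa2 and 1 of Apoe), where 9.10% of all probe sets did; 0 were lower without overlap, against 11.4%. All 6 were among the 8 member probe sets with a mean signal of at least 20000, whose median difference was 0.18. The 175 other probe sets as bright had a median of 0.18 as well, 163 had higher means in the knockouts, and 82 (46.9%) were higher without overlap. Their mean signal was 27543, 27243 and 24568 in the knockouts and 24633, 23575 and 22301 in the controls, so knockouts 3 and 4 read highest and control 3 lowest. The 8 bright member probe sets followed the same order of extremes, with means of 34987, 33835 and 31122 against 30593, 30409 and 27544. After quantile normalization, which gives every array the same distribution of signals, the median was -0.02 for the 8 and 0.01 for the 175. Then 0 of the 15 were higher without overlap, against 27 of the 175. Over all 27022 probe sets that number was 2920, beside 2459 for the values as deposited. Median centring, which sets the median signal of every array equal, enlarged the differences instead, to a median of 0.28 for the 8 and 0.27 for the 175, with Apoa1 1419233_x_at at 0.34 (adjusted p = 0.460), Apoe at 0.29 (0.500) and Apoc3 at 0.28 (0.538). It too left 0 of the 15 higher without overlap, while 3578 of all 27022 probe sets were. The limit of 20000 was chosen after the values were seen, and the part of array-wide brightness in these differences was not tested further.

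**Figure D2:**
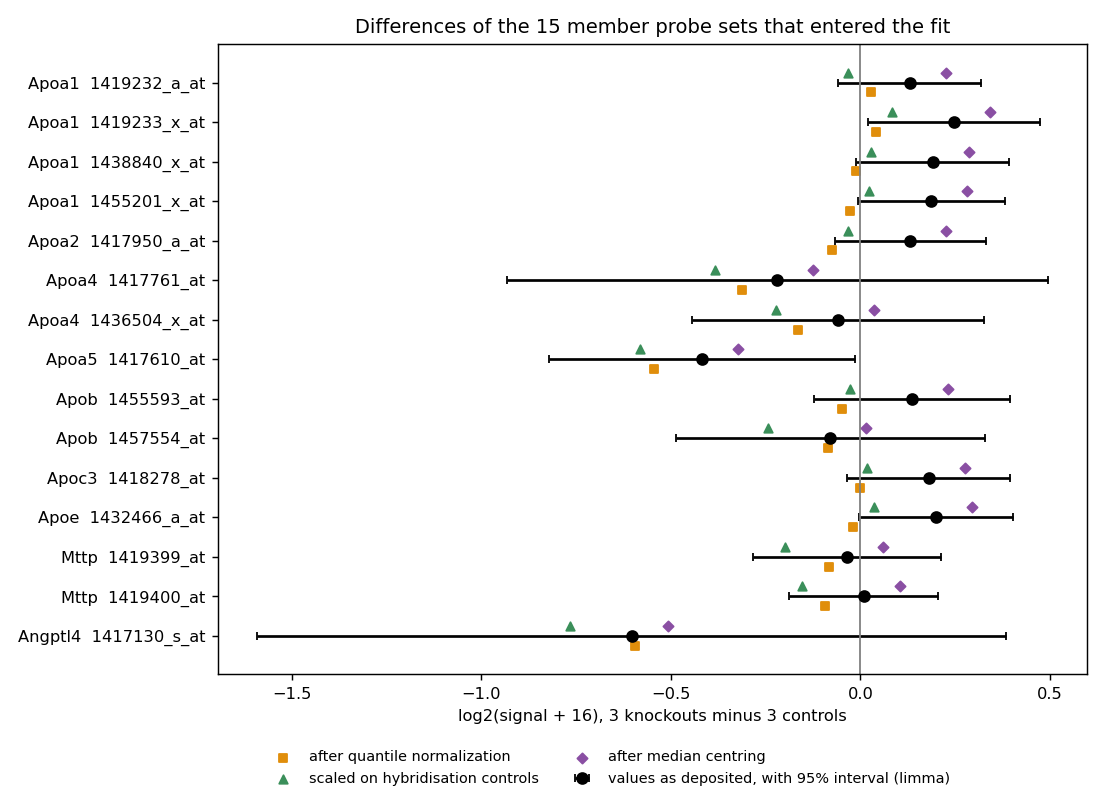
Log2 difference (knockouts minus controls, horizontal axis) for the 15 member probe sets in the fit; black points with bars are the values as deposited with 95% intervals, orange squares the values after quantile normalization and green triangles those after scaling on the hybridisation controls; purple diamonds are values after median centring. The small positive differences of Apoa1, Apoa2, Apoc3, Apoe and the bright Apob probe set move toward 0 under quantile normalization and hybridisation-control scaling and become larger under median centring, while Apoa5 and Angptl4 stay below 0 in all of these.

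The largest negative differences were those of Angptl4 and Apoa5, which act on triglyceride clearance. Angptl4, an inhibitor of lipoprotein lipase induced by fasting, read 1121, 1992 and 1165 in knockouts 3, 4 and 5 and 3358, 2969.6 and 922 in controls 1, 2 and 3 (probe set 1417130_s_at). Controls 1 and 2 were above every knockout, but control 3 was below every knockout, so the groups overlapped. The knockouts averaged 1426 ± 491 (SD, n = 3) and the controls 2416 ± 1309 (SD, n = 3), and the ratio of means was 59.0%. The difference of -0.60 had a standard error of 0.44 and an interval of -1.59 to 0.39 (adjusted p = 0.570). Without control 3 it was -1.19, or 2.28-fold lower (adjusted p = 0.0780), without control 1 it was -0.27 (adjusted p = 0.845) and without control 2 -0.35 (adjusted p = 0.809). The size thus rested on which control was included, and the test was passed in none of these runs. A second Angptl4 probe set, 1453410_at, read between 1.7 and 26.9 on the 6 arrays and did not enter the fit.

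Apoa5 encodes an activator of lipoprotein lipase made almost only by liver. It read 13713, 20439.5 and 13515 in the knockouts and 23849.7, 22078 and 17126 in the controls. Knockouts 3 and 5 were below all controls, and knockout 4 was above control 3. The knockouts averaged 15889 ± 3942 (SD, n = 3) and the controls 21018 ± 3485 (SD, n = 3), a ratio of 75.6%. The difference of -0.42 had a standard error of 0.18 and an interval of -0.82 to -0.01, with an unadjusted p of 0.0444 and an adjusted p of 0.329 by limma. Its sign was negative in every setting tried, from -0.31 to -0.61, and the lowest adjusted p was 0.122, without knockout 4.

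Apoa4, made by intestine and liver, varied most among the apolipoproteins. Its probe set 1417761_at read 8267, 11074 and 10750.2 in the knockouts and 6299, 16774 and 14689 in the controls. Control 1 was lowest of all 6 arrays and controls 2 and 3 were the highest, so the 3 knockouts lay inside the range of the controls. The difference was -0.22 (standard error 0.32, interval -0.93 to 0.49, adjusted p = 0.802). It was -0.66 without control 1 (adjusted p = 0.116), -0.09 without knockout 3 (0.960), -0.05 without control 3 (0.971) and 0.05 without control 2 (0.968). The probe set 1436504_x_at read 12040.2, 11572 and 14503 against 9985, 16046 and 14267, with the same order of the controls, and differed by -0.06 (interval -0.44 to 0.33, adjusted p = 0.911). It differed by -0.26 without control 1 (adjusted p = 0.466).

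**Figure D3:**
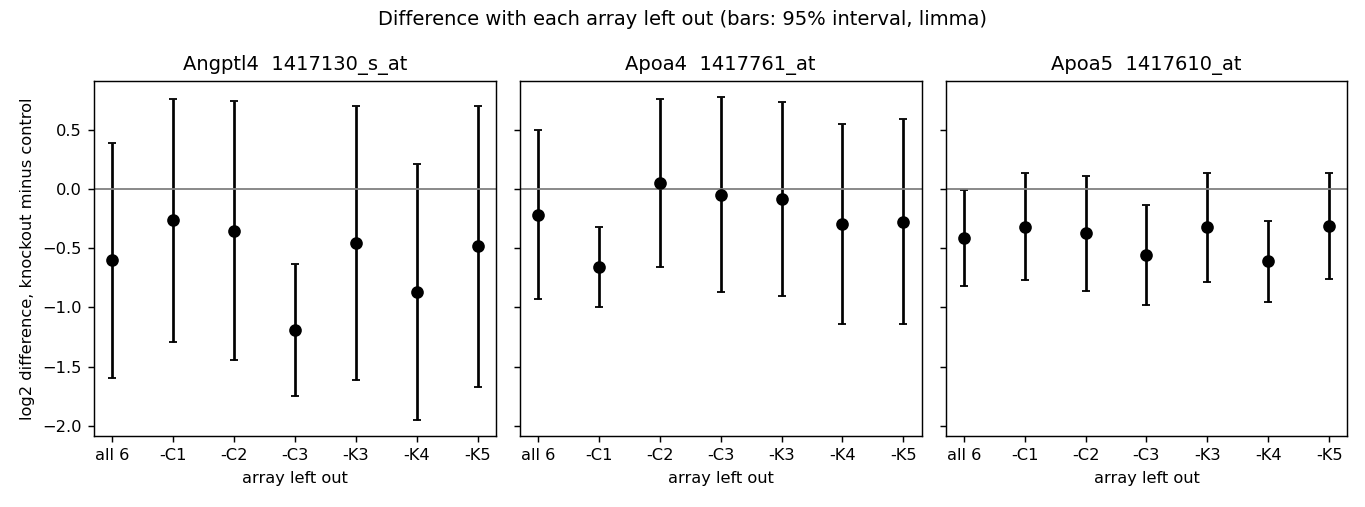
Log2 difference (knockouts minus controls, vertical axis) of 1 probe set each of Angptl4, Apoa4 and Apoa5 with all 6 arrays and with each control (C) or knockout (K) left out; bars are 95% intervals from limma. Angptl4 moves from -0.60 to -1.19 without control 3 and Apoa4 from -0.22 to -0.66 without control 1, while Apoa5 stays between -0.31 and -0.61.

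The controls that stood apart were not the same mouse. Control 1 was highest for Angptl4 and Apoa5 and lowest for Apoa4, and control 3 was lowest of the controls for Angptl4 and Apoa5. The 3 profiles closest to that of Angptl4 over the 6 arrays, by mean absolute difference of centred log2 signals among 22670 probe sets, were those of H2-Aa, Lgals4 and Aqp4 (0.19, 0.21 and 0.22). H2-Aa read 178, 235 and 187 in the knockouts and 495, 483 and 206 in the controls, also with control 3 near the knockouts. For Apoa4 (1417761_at) the 3 closest profiles were Mphosph6, Psmf1 and Synj2 (0.10, 0.10 and 0.12). These genes were chosen for their closeness on the same 6 arrays, so the shared pattern follows from the choice. Some were dim, with Aqp4 between 85.8 and 248 and Psmf1 between 65.2 and 173.

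Intestinal and fat cells make several of these genes, so their markers were read too. Of 7 measured enterocyte markers, Alpi lay between 160.1 and 256, Cdx2 reached 188, and Vil1, Cdx1, Fabp6 and Lct were at or under 132 on every array. The list's sum (2677 to 3922 in the knockouts, 4192 to 8658 in the controls) was mostly Fabp2, a fatty acid binding protein. Fabp2 read 2387, 3558 and 2434 against 3842, 8247 and 4544 and differed by -0.93 (adjusted p = 0.153); it was singled out after its values were seen. Of 3 measured adipocyte markers, Adipoq was at or under 60 and Lep at or under 33.1 everywhere. The sum was 229 to 382 in the knockouts and 147 to 286 in the controls, and most of it was Retn (71.3 to 347), the single one in the fit, which differed by 0.62 (adjusted p = 0.513). Markers of cholangiocytes summed to 258 to 528 against 313 to 1318, with control 2 highest, and those of sinusoidal endothelium to 8685 to 9230.3 against 8469.8 to 9201. Markers of stellate cells summed to 12426.5 to 13102 against 12369.8 to 13844, of leukocytes to 1434 to 1931 against 1413 to 1640.1, and of blood to 693 to 2210.0 against 1876.5 to 2355. Of all marker genes outside hepatocytes that entered the fit, 0 passed in any list, and their part in the member values was not tested.

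The wider lipoprotein pathway was read from 6 lists, in which 86 genes entered the fit, each by its brightest probe set. 1 gene rose, the receptor Cd36, and 1 fell, the nuclear receptor Nr2f2, against 1.87% of all 13036 genes (0.982% higher and 0.890% lower). Of all these genes 15.4% had an unadjusted p under 0.05, 47.2% had a higher mean in the knockouts and 52.8% a lower one. Of the 13036, 1352 were higher without overlap and 1422 lower. The counts by list below stand beside those values. Other apolipoproteins had 0 of 10 passing by limma (1 at an unadjusted p under 0.05), 6 of them higher on average and a median of 0.01, beside -0.02 for all genes. Without overlap, 3 of the 10 were higher and 2 lower. In the Apoe cluster, Apoc1 and Apoc4 differed by 0.18 and 0.21 (adjusted p = 0.398 and 0.384), and Apoc2, the activator of lipoprotein lipase, by 0.01 (adjusted p = 0.981). Apoc1 and Apoc4 were read by probe sets above the bright limit, where the median of other probe sets was 0.18 as well. Saa4, the constitutive serum amyloid A of high density lipoprotein, read 7183, 7905 and 6112.5 against 10879, 9707 and 10127. Its groups did not overlap, and it differed by -0.54 (interval -0.79 to -0.29, adjusted p = 0.0554), with its other probe set at -0.48 (adjusted p = 0.153). Apod differed by -0.44 (adjusted p = 0.391), and by -0.28 without knockout 4.

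Of the assembly and export genes 0 of 18 passed (6 at an unadjusted p under 0.05), 12 had higher means in the knockouts, and the list's median was 0.16. Without overlap, 6 of the 18 were higher and 1 lower. Mia2, which helps load bulky cargo at endoplasmic reticulum exit sites, read 793, 748 and 666 in the knockouts and 404, 436 and 538.5 in the controls. All knockouts were above all controls, and the difference was 0.67 (interval 0.34 to 1.00, adjusted p = 0.0693). P4hb, the partner subunit of MTTP, differed by 0.18 (adjusted p = 0.418), and A1cf, a cofactor of Apob messenger RNA editing, by 0.35 (adjusted p = 0.293). P4hb was read by a probe set above the bright limit, where the 175 probe sets outside the members had a median of 0.18. Sar1b, the GTPase of lipoprotein export vesicles, differed by -0.22 (adjusted p = 0.333).

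Of the lipases, lipid transfer proteins and their inhibitors 0 of 12 passed (3 at an unadjusted p under 0.05), 6 had higher means in the knockouts, and the median was 0.00339. Without overlap, 3 of the 12 were higher and 0 lower. Lipg, the endothelial lipase, read 391, 583 and 229 against 821, 1047.5 and 512 and differed by -0.99 (interval -1.75 to -0.23, adjusted p = 0.219; -0.66 without knockout 5), and its other probe set by -0.999 (adjusted p = 0.226). Pltp, the phospholipid transfer protein, differed by -0.43 (adjusted p = 0.581), with control 2 at 4713 and the other arrays between 1736 and 2125, and by 0.02 without control 2.

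Among receptors and cholesterol exporters 1 of 12 rose and 0 fell (3 at an unadjusted p under 0.05). Group means were lower in the knockouts for 10, and the median was -0.16. Without overlap, 1 of the 12 was lower and 1 higher. Cd36, a scavenger receptor that also takes up fatty acids, read 5371, 6577 and 4151 in the knockouts and 614, 1987 and 615 in the controls. Every knockout was above every control, and control 2 was the highest control. The difference was 2.51 on the log2 scale, or 5.71-fold (standard error 0.40, adjusted p = 0.0195), and its other 2 probe sets passed as well, at 2.42 and 1.75 (adjusted p = 0.0207 and 0.0401). The call was lost without knockout 3, knockout 4, control 1 or control 3 (adjusted p = 0.0795, 0.0578, 0.0652 and 0.0676, differences of 2.50, 2.35, 2.23 and 2.24), with no variance trend (0.0978) and with robust eBayes (0.0789). Scarb1, the high density lipoprotein receptor, differed by -0.16 (adjusted p = 0.517) and Lsr, a remnant receptor, by -0.50 (adjusted p = 0.189).

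Among transcriptional regulators of apolipoprotein genes 0 of 19 rose and 1 fell (4 at an unadjusted p under 0.05). Group means were lower in the knockouts for 16, and the median was -0.16. Without overlap, 1 of the 19 was lower and 2 were higher. Nr2f2 (COUP-TFII), which binds the same kind of element as HNF4A, read 573, 620 and 594 in the knockouts and 908, 1022 and 1070.3 in the controls. It was 1.66-fold lower (log2 difference -0.73, standard error 0.12, adjusted p = 0.0207), whereas its other 3 probe sets differed by -0.32, -0.29 and -0.04 without passing. The call was lost without knockout 3, knockout 5, control 2 or control 3 (adjusted p = 0.09999, 0.0558, 0.0783 and 0.0690), while the difference stayed at -0.70, -0.73, -0.71 and -0.68. Median centring (-0.63, adjusted p = 0.0637) and a fit without the variance trend (-0.73, adjusted p = 0.0841) ended the call too. The 4 probe sets of Hnf4a differed by 0.20, 0.33, 0.41 and 0.47, and the lowest adjusted p among them was 0.0676.

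Of the PPARA and fasting targets, the set to which Angptl4 also belongs, 0 of 16 passed (3 at an unadjusted p under 0.05). Group means were lower in the knockouts for 12, and the median was -0.16. Without overlap, 5 of the 16 were lower and 0 higher, beside 1422 lower and 1352 higher of 13036 genes. Those 5 include Pdk4, with knockouts at 152.9 to 153.6 and the lowest control at 154.2. They also include Fabp1, whose other probe set differed by 0.22. Mgll, a monoglyceride lipase, differed by -0.69 (adjusted p = 0.0993) and the hormone Fgf21 by 1.03 (adjusted p = 0.391). Fgf21 read 1954 in knockout 3 against 483 and 778 in the other two, and differed by 0.48 without knockout 3 (adjusted p = 0.743). By array, the median of the 16 centred log2 levels was highest in control 2 (0.26, with 2 genes below their own mean) and lowest in knockout 5 (-0.25, with 14 below). In control 3, where Angptl4 was lowest, it was 0.05, with 7 of 16 below.

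**Figure D4:**
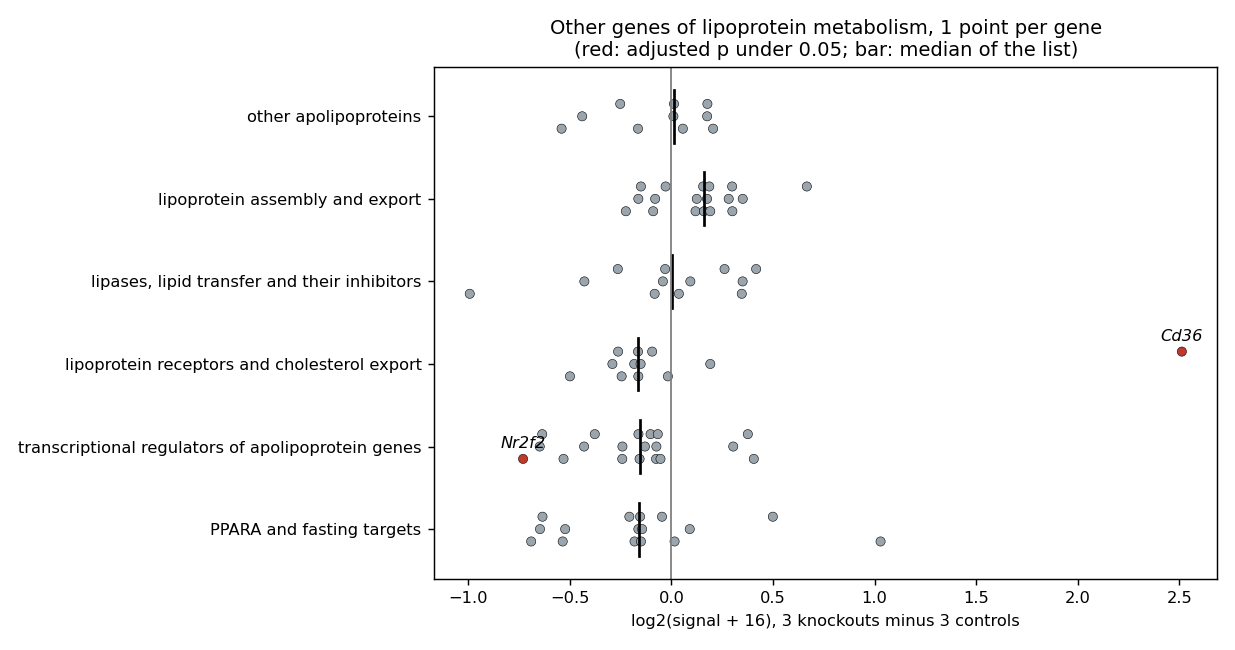
Log2 difference (knockouts minus controls, horizontal axis) of each gene of the 6 pathway lists by its brightest probe set; red points passed an adjusted p of 0.05, grey points did not, and black bars are list medians. Cd36 at 2.51 and Nr2f2 at -0.73 are the 2 genes that passed; the medians lie between -0.16 and 0.16.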

How the data were processed

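The livers of 6 mice were profiled on Affymetrix Mouse Genome 430 2.0 arrays, 1 colour each. The deposited values are intensity on a linear scale. Per the labels' protocols, the cRNA carried biotin and was hybridised together with control transcripts. The sources used here do not name the software that summarised the probes, and no detection calls were used. Trimmed of 2% at each end, the mean is 500.0 on every array, so the authors' values were scaled, and a change in total RNA per cell would not be seen. Genes were named from the platform's probe table where a probe set has 1 symbol (34945 of 45037; 932 have several and 9160 none), and the symbols of all 16 member probe sets matched RefSeq by Entrez number.

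log2(signal + 16) was computed, which understates differences of dim probe sets. Probe sets with a mean at or above the 40th percentile (27022) were fitted with limma 3.58.1 in R 4.3.3 (two-sided; eBayes with trend) and p-values adjusted by Benjamini-Hochberg over all of them and a threshold of 0.05. "Rose" and "fell" mean past that threshold. Precision is limited by the number of arrays, 3 per group; exact permutation of 1 value could reach p = 0.1 at the lowest. The steps were tested on simulated data.

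The members, the 6 lists and the tests were chosen with earlier results of these data known. Named are all member probe sets, list genes that passed or otherwise the 2 with the largest difference, and for the 2 members with the widest range the 3 closest profiles; Apoc1, Apoc2, Apoc4, P4hb, Sar1b, Scarb1, Lsr, Hnf4a and Fabp2 were added after their values were seen. Alternatives were other filters (none, 60th percentile), offsets (1, 64), normalizations, variance models and probe set choices, and leaving out each array.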

Additional observations from a re-analysis of the deposited data

How the results depend on the processing

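No member probe set passed in any of the 13 other settings or the 6 runs without 1 array. Of 274 recomputed member values 26 changed sign; the lowest adjusted p among those was 0.448, and the causes were not tested. Quantile normalization gave Apoa1 1438840_x_at -0.0122, Apoa1 1455201_x_at -0.0285, Apoa2 -0.0761, Apob 1455593_at -0.0474, Apoc3 -0.00112, Apoe -0.0207 and Mttp 1419400_at -0.0945. Cyclic loess gave Apoa1 1419232_a_at -0.0146, Apoa2 -0.00372 and Mttp 1419400_at -0.0805, and scaling on the hybridisation controls gave these -0.0340, -0.0322 and -0.155, and Apob 1455593_at -0.0281. Median centring gave Apoa4 1436504_x_at 0.0356, Apob 1457554_at 0.0160 and Mttp 1419399_at 0.0597. Leaving out single arrays turned the sign of some: Apoa4 1417761_at ranged from -0.657 to 0.0481, Apoa4 1436504_x_at from -0.259 to 0.0829, Apob 1457554_at from -0.231 to 0.0692, Mttp 1419399_at from -0.103 to 0.0589, Mttp 1419400_at from -0.0213 to 0.0588 and Pltp, no member, from -0.677 to 0.0240.

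Member probe sets higher without overlap numbered 6, but 0 after quantile normalization, median centring or scaling on the hybridisation controls, 2 after cyclic loess, 3 of 9 with 1 probe set per gene and 3 of 10 without probe sets ending in _s_at or _x_at; without single arrays they numbered 6 to 9. Over all probe sets 2459 were higher without overlap, but 2920 after quantile normalization, 3578 after median centring and 2950 after cyclic loess. They numbered 823 after scaling on the hybridisation controls, 1352 with 1 per gene, and 3347 to 4274 without single arrays. All calls numbered 415, 271 with no filter, 109 without the variance trend and 263 with 1 per gene, and 150 (without knockout 3) to 296 without single arrays. Pathway genes called numbered 2, 5 after quantile, cyclic loess, scaling on the hybridisation controls or array weights, 0 without the variance trend, 1 after median centring, and 0 to 2 without single arrays. Saa4 passed in 6 settings, with its lowest adjusted p after cyclic loess (0.0151), and Mia2 with array weights (0.0315). No paired analysis was run because the labels used here link no knockout to a particular control. Signal over background limits Angptl4 1453410_at, which stayed near or under the offset.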
